A study of Mus musculus with 4 samples.

Results

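Probe-poor windows are the 200 kb bins of chromosomes 1 to 19 (mouse build mm9) in which the array carries 5 to 8 distinct probes. They were chosen from the array's design alone, without any measured signal, and they number 2889 of the 11822 autosomal bins that hold a probe, or 24.4%. Together they cover 577.8 Mb and hold 17692 of the 161460 autosomal probes. A window was measured when at least 5 of its probes were usable on all arrays, which 2879 of the 2889 were, and the other 10 have no value here. The measured windows make up 25.4% of 11314 measured autosomal windows, and they were compared with the 2527 bins that hold 20 or more probes, called probe-rich below.

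Mammalian chromosomes are copied in a set order during S phase: gene-rich, open chromatin tends to be copied early, and gene-poor, compact chromatin tends to be copied late. The SUV4-20H enzymes add methyl groups to lysine 20 of histone H4, a mark of compact chromatin that is also linked to the licensing of replication origins. Long sparse stretches on a tiling array often mark repeats and gene deserts, where unique probes are hard to design. Gene and repeat content of these windows was not analysed here, because the annotation at hand is on another build, so the windows are described by probe number only.

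The study measured replication timing in mouse embryonic fibroblasts, with 4 arrays of 2 colours and 1 array per group. The control group is a fibroblast line labelled control, and in the KO group a floxed SUV4-20H1 allele was removed with 4-hydroxytamoxifen at 1 mM for 24 hours. The other groups are a suv4-20h mutant line left non-induced and the same kind of mutant induced. The labels do not say how induction was done, whether the controls received 4-hydroxytamoxifen, or whether the second enzyme of the pair was present, and they number the line differently in different fields. All cells grew in 3% O2 and 5% CO2, were pulsed with BrdU at 50 µM for 1 hour, and 80000 were separated by DNA content into cells early and late in S phase. Newly made DNA was pulled down with a BrdU antibody and amplified, and early DNA (Cy3) was hybridised against late DNA (Cy5), with no dye swap. Control and KO shared 1 slide, and non-induced and induced shared another. The timing value is log2 of early signal divided by late signal, centred on each array's autosomal probe median, so that a higher value means earlier copying. With 1 array per group no difference has a replicate check, so no p-value is given, and errors cover the probes of a window only.

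A probe-poor window had a median of 6 usable probes, against 21 in a probe-rich bin. Its probes lay a median of 30070 bp apart, against 8822 bp, and spanned a median of 165 kb, against 190 kb. The windows were therefore covered along most of their length, but the largest gap inside them was longer, with a median of 47.6 kb against 16.6 kb. The median standard error of KO minus control was 0.18 in probe-poor windows and 0.098 in probe-rich bins, and for induced minus non-induced it was 0.20 against 0.087. With probe-rich bins cut down to 6 probes the standard errors were 0.17 and 0.15, so most of the gap in precision came with the probe number in the first comparison and less of it in the second. Timing from odd-numbered and even-numbered probes of the same probe-poor window correlated with Pearson's r of 0.84 on the control, 0.83 on the KO, 0.79 on the non-induced and 0.75 on the induced array (2879 windows that share array and hybridisation). For the differences the same r was 0.73 for KO minus control and 0.38 for induced minus non-induced. Single probe-poor windows are thus read less surely in the induced comparison.

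Probe-poor windows were copied late on every array. Their median timing was -0.50 on the control array, -1.05 on the KO, -0.66 on the non-induced and -1.11 on the induced array. The medians of probe-rich bins were 0.33, 0.44, 0.52 and 0.64 in the same order. The typical probe-poor window was thus below 0 on all 4 arrays and the typical probe-rich bin above it. The difference between these medians was -0.83 on the control, -1.49 on the KO, -1.18 on the non-induced and -1.76 on the induced array. The arrays also differed in the width of their scale: the distance from the 10th to the 90th percentile of all windows was 1.81, 2.31, 2.07 and 2.70. In units of that distance the gap was -0.459, -0.642, -0.569 and -0.651, and the KO and induced arrays still held the widest differences.

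**Figure D1:**
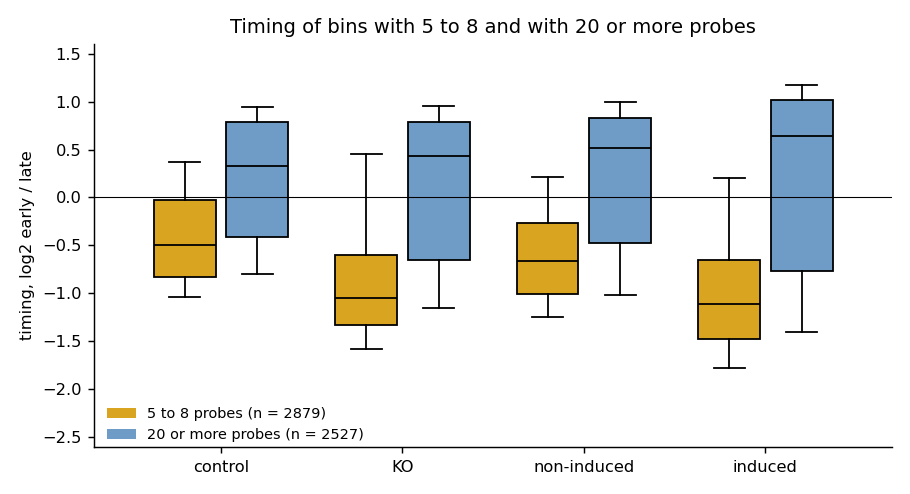
Timing (log2 early over late, vertical axis) of probe-poor windows and probe-rich bins on each of the 4 arrays, with boxes from the lower to the upper quartile, a line at the median and whiskers from the 10th to the 90th percentile. The probe-poor boxes lie below the probe-rich boxes on every array, with medians of -0.50 against 0.33 on the control and -1.11 against 0.64 on the induced array.

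The share of probe-poor windows later than the median probe-rich bin was 89.0% on the control array (exact binomial 95% interval 87.8 to 90.1), 89.8% on the KO (88.6 to 90.9), 93.2% on the non-induced (92.2 to 94.1) and 94.1% on the induced array (93.2 to 94.9). These intervals treat windows as independent, which adjacent windows are not. Among the latest 10% of autosomal windows, 42.7%, 53.9%, 40.6% and 44.7% were probe-poor in the same array order, and among the earliest 10% the shares were 7.43%, 10.3%, 5.31% and 4.51%. Over all autosomal windows their share is 25.4%, so they were over-represented at the late end and scarce at the early end of every array.

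Timing moved with probe number beyond the chosen range as well. Bins of 4 probes, just below the range, had medians of -0.43, -1.06, -0.64 and -1.10 (365 bins designed), and bins of 5 probes had -0.51, -1.11, -0.67 and -1.14 (1005 bins). At the upper edge, bins of 8 probes had medians of -0.46, -0.92, -0.62 and -1.03 (397 bins), and bins of 9 probes had -0.22, -0.61, -0.43 and -0.80 (353 bins). The lower edge of the range is no break in timing, and from 8 to 9 probes the median rose on every array. On the KO, non-induced and induced arrays it rose further at 10 probes, to -0.37, -0.34 and -0.47. At 11 probes these medians were -0.65, -0.47 and -0.76, and at 14 probes -0.12, -0.12 and -0.25. On the control array the medians at 10, 11, 12 and 13 probes were -0.27, -0.36, -0.32 and -0.22, so they did not rise further there.

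**Figure D2:**
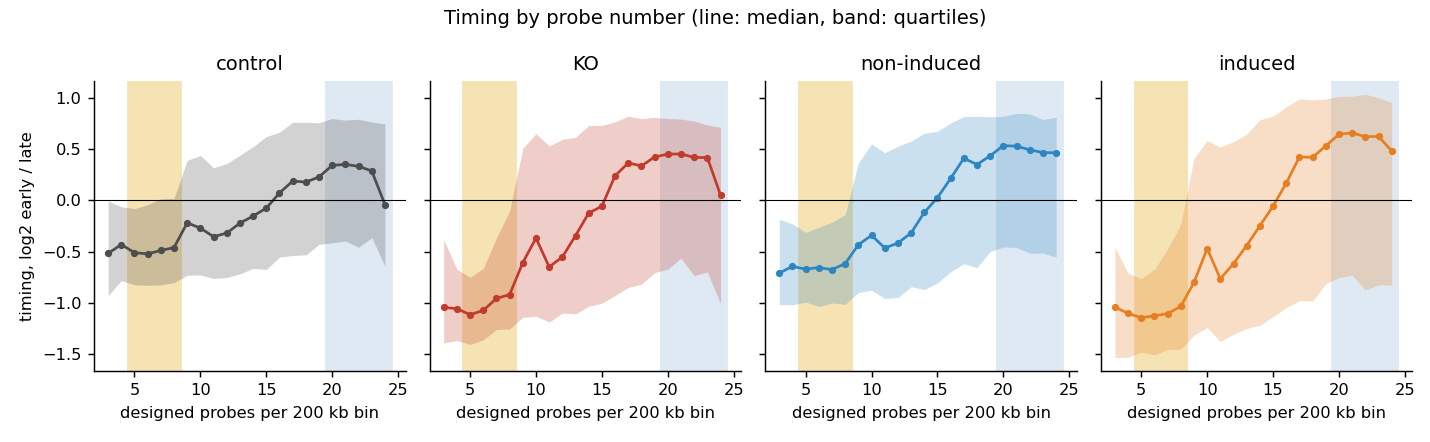
Median timing (log2 early over late, vertical axis) of autosomal bins by the number of designed probes (horizontal axis), 1 panel per array, with a band from the lower to the upper quartile and shading over 5 to 8 probes and over 20 or more. Bins of 5 to 8 probes sit at the low end of each curve, from -0.51 at 5 probes to -0.46 at 8 probes on the control array, and the curves are above 0 from 20 to 23 probes.

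The pattern was present on each chromosome. The probe-poor median was below the probe-rich median on 19 of 19 autosomes on every array, by -1.11 to -0.10 on the control, -1.69 to -0.89 on the KO, -1.50 to -0.61 on the non-induced and -2.05 to -1.09 on the induced array. The share of windows that were probe-poor ranged from 17.3% on chromosome 7 to 33.5% on chromosome 12, with 33.1% on chromosome 3. Counts ran from 50 on chromosome 19 to 246 on chromosome 3. Along a chromosome, probe-poor windows made up 26.9%, 27.8%, 27.3%, 25.5% and 19.8% of the windows in 5 equal parts from its start to its end, so they were scarcest towards the end.

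Not all of these windows were late. On all 4 arrays 2032 of 2879 (70.6%) were below 0 and 234 (8.13%) were above 0, and the other 613 changed sign between arrays. Among probe-rich bins 746 of 2527 (29.5%) were below 0 on all arrays and 1378 (54.5%) above. The array with the lowest value of a probe-poor window was the KO or the induced one in 2525 of 2879 windows (87.7%), against 56.1% of probe-rich bins. These are also the arrays with the widest scale, and its part in this count was not tested. Windows at or above 0 on the control and below 0 on the KO array numbered 345, and 108 went the other way, against 125 and 132 of 2527 probe-rich bins. Windows at or above 0 on the non-induced and below 0 on the induced array numbered 85, and 24 went the other way, with 38 and 18 among probe-rich bins. Those below 0 on both the KO and the induced array but not on either of the others numbered 44, and 6 showed the reverse, with 6 and 4 among probe-rich bins. Crossing 0 depends on where each array is centred, so these counts do too.

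The earliest probe-poor window on average was chromosome 14 from 76600001 to 76800000, with 6 usable probes and values of 1.13 on the control, 1.43 on the KO, 1.52 on the non-induced and 1.44 on the induced array (standard error over probes 0.11 to 0.27). Its neighbours hold 17 and 19 probes and averaged 1.02 to 1.15, so it lies in an early and densely covered stretch. Chromosome 7 from 118400001 to 118600000 had 1.59, 1.16, 1.33 and 1.36, with neighbours of 13 and 21 probes. The window of chromosome 16 from 93000001 to 93200000 had 1.38, 1.12, 1.38 and 1.41, and chromosome 2 from 60800001 to 61000000 had 1.44, 1.37, 1.15 and 1.19. These 4 windows were above 1 on every array.

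The latest on average was chromosome 18 from 50800001 to 51000000, with 5 probes and values of -1.21 on the control, -1.81 on the KO, -2.05 on the non-induced and -2.39 on the induced array. Chromosome 5 from 58800001 to 59000000 had -1.45, -1.80, -1.95 and -1.90. Chromosome 12 from 10800001 to 11000000 had -0.91, -1.94, -1.69 and -2.52, and its window from 96200001 to 96400000 lay between -2.29 on the induced and -1.35 on the control array. All 4 had 5 usable probes, and they were below -0.90 on every array. None of the 4 kept 5 probes well above background on all arrays.

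Probe-poor windows differed little from the windows directly beside them. Of the 2328 that had a measured neighbour on both sides, 53.7% were below the mean of their neighbours on the control array, 53.6% on the KO, 55.4% on the non-induced and 55.2% on the induced array, and the median difference was -0.02 to -0.05. For probe-rich bins the share below their neighbours was 46.1% to 47.8% of 2505. The late timing was thus mostly shared with adjacent windows. With normexp background correction, which fits and removes a background from the raw signals, the share on the KO array was 51.7% (exact binomial 95% interval 49.6 to 53.7). The 178 windows between neighbours of 13 or more probes each had medians of -0.27, -0.17, -0.23 and -0.22, and 54.5%, 46.1%, 51.7% and 50% of them were below their neighbours, so no common step was seen there. The 907 windows between probe-poor neighbours had -0.49, -1.17, -0.65 and -1.18, so isolated windows were far less late on the KO and induced arrays.

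Some windows lay to the same side of their neighbours on every array and far from them on average. Chromosome 19 from 35200001 to 35400000 was furthest below its neighbours, by 0.94 on the average of the 4 arrays, with values of -1.14, -1.62, -1.32 and -1.75 where the neighbours had -0.65, -0.49, -0.42 and -0.54. The window of chromosome 10 from 7000001 to 7200000 lay a mean of -0.86 from its neighbours, and chromosome 18 from 67000001 to 67200000 a mean of -0.85. On the other side, chromosome 17 from 41400001 to 41600000 lay 0.84 above neighbours that averaged -1.18, -1.45, -1.10 and -1.69, with values of -0.50, -0.66, -0.49 and -0.42. Chromosome 7 from 65200001 to 65400000 and from 100800001 to 101000000 lay 0.81 and 0.75 above theirs on average. On the control array they were only 0.28 and 0.33 above them, with standard errors of the window over probes of 0.30 and 0.24. These 3 windows had standard errors over probes of 0.24 to 0.50, against 0.067 to 0.15 for the window of chromosome 19, so the step is less certain there. With normexp the steps were smaller: -0.48, -0.65 and -0.67 for the windows of chromosomes 19, 10 and 18, and 0.59, 0.35 and 0.10 for those above their neighbours. With probes well above background only, the steps of chromosomes 10 and 18 were -0.85 and -0.84, and the others could not be recomputed.

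The mean signal of both dyes was lower in probe-poor windows on every array but the control. Relative to the autosomal median of each channel, early signal stood at -0.20 on the control, -0.76 on the KO, -0.79 on the non-induced and -0.94 on the induced array (log2), and late signal at 0.21, 0.04, -0.11 and 0.03. The mean of both channels was 0.01, -0.34, -0.42 and -0.40. The shortfall was thus mostly in the early channel. Probes well above background in both channels made up 96.6%, 90.1%, 90.4% and 77.3% in probe-poor windows, against 92.9%, 93.5%, 95.7% and 91.2% in probe-rich bins. The part of dim early signal in the differences described next was not tested.

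The first comparison asks what deleting the floxed SUV4-20H1 allele does to timing. In probe-poor windows KO minus control had a median of -0.45, with a lower quartile of -0.80 and an upper quartile of -0.11, and 80.6% of windows were below 0. The median of probe-rich bins was -0.07, with 58.8% below 0. The median over all autosomal windows was -0.15, which moves with each array's centring. Windows were called later or earlier when the difference reached 0.25 of the control array's 10th to 90th percentile distance, which is 0.45, and 3 standard errors over probes. Probe-poor windows were called later in 1048 of 2879 cases (36.4%, exact binomial 95% interval 34.6 to 38.2), where the share over all 12000 windows was 22.2%. They were called earlier in 131 cases (4.55%), where the share over all windows was 8.02%. Probe-rich bins reduced to 6 probes had the same median as with all probes, -0.07, and were called later in 9.62% and earlier in 5.42%. Fewer probes widen the standard error, which by itself lowers these shares.

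The size of the KO difference depended on the scale of the arrays, and the excess over all windows was seen under each alternative given here. With the arrays set to 1 common spread, 672 windows were later (23.3%, against 13.7% over all windows) and 128 earlier (4.45%, against 6.37%). The probe-poor median was then -0.26 and the probe-rich one -0.17, closer together than the -0.45 and -0.07 of the processed signals. After quantile normalization 520 were later (18.1%, against 9.52%) and 194 earlier (6.74%, against 9.13%), with medians of -0.12 in probe-poor windows and -0.03 in probe-rich bins. With normexp background correction 713 were later (24.8%, against 14.4%) and 132 earlier (4.58%, against 7.47%), with medians of -0.20 and -0.03. With each array centred on its autosomal windows, which moved the median of all of them from -0.15 to 0.03, 656 were later (22.8%, against 12.6%) and 241 earlier (8.37%, against 15.3%). With probes well above background on all arrays, 1506 probe-poor windows kept 5 probes, of which 396 were later (26.3%, against 18.6%) and 105 earlier (6.97%, against 7.76%). At a size threshold of 0.35 of the spread 71 were earlier (2.47%, against 4.04%).

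The largest falls lay close together. Chromosome 14 holds 3 of the 5 lowest: from 108600001 to 108800000, from 109600001 to 109800000 and from 108000001 to 108200000. The first went from 0.38 on the control to -1.98 on the KO array, a difference of -2.36 (standard error 0.31, 5 probes), and its non-induced and induced values were 0.04 and -1.27. The second had 0.21 and -1.92 (difference -2.14, standard error 0.12), and the third 0.35 and -1.74 (difference -2.09, standard error 0.45). The other pair lies on chromosome 12, from 48400001 to 48600000 (0.88 and -1.23, difference -2.11) and from 48200001 to 48400000 (0.32 and -1.72, difference -2.04). The former had -0.49 on the non-induced array, which was also called later than the control (difference -1.37, standard error 0.42). All 5 were above 0 on the control array and below -1.20 on the KO array. All 5 were also lower on the induced than on the non-induced array, as were 84.2% of all probe-poor windows. Of the 5, the second of chromosome 14 and chromosome 12 from 48200001 to 48400000 were called later in induced, and the others were not called. With normexp the 5 differences kept their calls at smaller sizes, from -1.44 to -0.85. None of the 5 windows kept 5 probes well above background on all arrays, so these falls could not be recomputed without dim probes.

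Chromosome 2 holds 4 of the 5 windows that were earliest in KO relative to control. Chromosome 2 from 108600001 to 108800000 went from -0.63 on the control to 0.81 on the KO array, a difference of 1.45 (standard error 0.24, 5 probes), with -0.78 and -1.22 on the non-induced and induced arrays. Chromosome 17 from 8200001 to 8400000 went from -0.28 to 1.06 (difference 1.35), chromosome 2 from 172400001 to 172600000 from -0.75 to 0.58 (difference 1.33) and chromosome 2 from 115000001 to 115200000 from -0.64 to 0.65 (difference 1.29). The window of chromosome 2 from 109200001 to 109400000 went from -0.05 to 1.20 (difference 1.25). In the induced comparison the differences of these 5 windows ran from -0.44 to 0.19, and none was called. The 4 windows of chromosome 2 were above 0 on the KO array alone. That of chromosome 17 had 0.69 on the non-induced and 0.88 on the induced array, so it was below 0 on the control array alone. With normexp the 5 differences of KO minus control ran from 0.66 to 1.13, and all 5 kept the call.

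**Figure D3:**
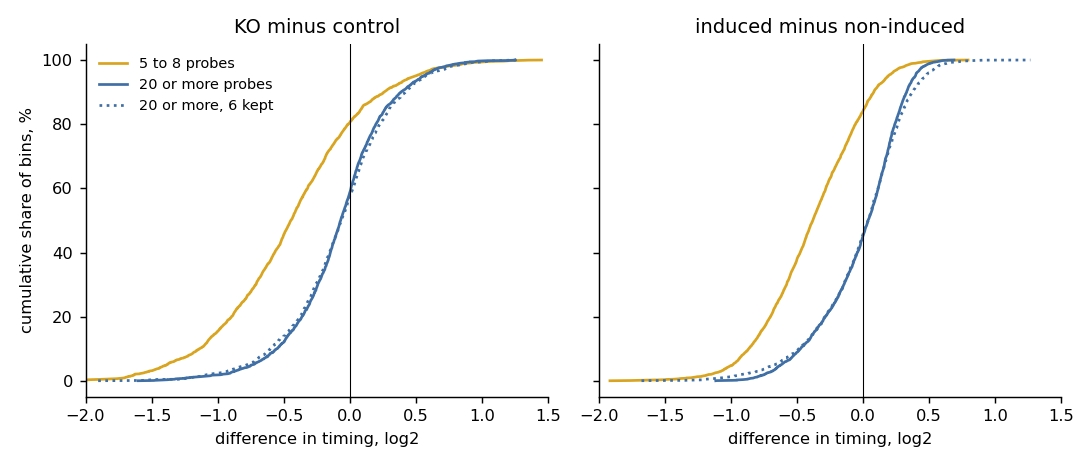
Cumulative share of windows (vertical axis) by their difference in timing (log2 units, horizontal axis, cut at the ends), for KO minus control and induced minus non-induced, in probe-poor windows, probe-rich bins and probe-rich bins reduced to 6 probes. The probe-poor curve lies to the left, with a median of -0.45 in the first comparison and -0.38 in the second against -0.07 and 0.04, and the curve for 6 probes follows the probe-rich curve.

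The second comparison sets the induced mutant against the non-induced one, within a different slide and different cells. Induced minus non-induced had a median of -0.38 in probe-poor windows, with quartiles of -0.64 and -0.11, and 84.2% of windows were below 0. In probe-rich bins the median was 0.04, and over all autosomal windows it was -0.11. Here the size threshold was 0.52. Later calls numbered 467 of 2879 (16.2%, exact binomial 95% interval 14.9 to 17.6), where the share over all windows was 11.9%. Earlier calls numbered 5 (0.174%), where the share over all windows was 0.467%. In percentage points the excess over all windows was thus smaller than in the KO comparison, and probe-rich bins reduced to 6 probes were called later in 4.59%. As a ratio to the share over all windows it was also smaller with the processed signals. That ratio was larger than in the KO comparison with scaling, quantile normalization, normexp and probes well above background.

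The number of calls depended strongly on the scale here. With the arrays set to 1 common spread, 109 windows were later (3.79%, against 1.87% over all windows) and 4 earlier (0.139%, against 0.0667%), and the medians were -0.15 in probe-poor windows and -0.07 in probe-rich bins. After quantile normalization 84 were later (2.92%, against 1.21%) and 7 earlier (0.243%, against 0.158%), with medians of -0.07 and 0.04. With normexp 143 were later (4.97%, against 2.34%) and 3 earlier (0.104%, against 0.433%), with medians of -0.12 and 0.02. With each array centred on its autosomal windows, 157 were later (5.45%, against 3.5%) and 45 earlier (1.56%, against 5.87%). With probes well above background 177 of 1506 were later (11.8%, against 7.07%) and 2 earlier (0.133%, against 0.116%). At a size threshold of 0.35, 290 were later (10.1%, against 5.32%) and 1 earlier (0.0347%, against 0.025%), and by size alone 1039 were later (36.1%, against 18.6%) and 9 earlier (0.313%, against 0.517%).

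The 5 windows that fell most were below 0 on the non-induced array in 3 cases and above 0 in 2. The values above 0 had wide standard errors over probes there, 0.40 on chromosome 1 and 0.25 on chromosome 6. Chromosome 2 from 55600001 to 55800000 went from -0.28 on the non-induced to -2.19 on the induced array, a difference of -1.91 (standard error 0.45, 5 probes), with -0.76 and -1.84 on the control and KO arrays. Chromosome 11 from 92600001 to 92800000 went from -0.60 to -2.38 (difference -1.78, standard error 0.30), and chromosome 1 from 29800001 to 30000000 from 0.44 to -1.32 (difference -1.76, standard error 0.52). Chromosome 11 from 9800001 to 10000000 (-0.67 and -2.40, difference -1.73) and chromosome 6 from 20400001 to 20600000 (0.16 and -1.52, difference -1.68) completed the 5. The difference of KO minus control was below -0.80 in each of these windows. With normexp the induced differences shrank to -0.44, -0.49, -0.35, -0.59 and -0.28 in the same order. The windows of chromosome 1 and chromosome 6 then lost the call, and that of chromosome 1 lost it also with each array centred on its windows (-1.56). None of the 5 windows kept 5 probes well above background on all arrays, so these falls too could not be recomputed without dim probes.

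Earlier calls were few, and each of the 5 windows lay on a different chromosome. They were chromosome 4 from 105400001 to 105600000, which went from -0.25 to 0.54 (difference 0.79, standard error 0.21), chromosome 17 from 7200001 to 7400000 (0.39 and 1.07, difference 0.68), chromosome 6 from 148400001 to 148600000 (-0.08 and 0.47, difference 0.56), chromosome 12 from 78800001 to 79000000 (-1.05 and -0.50, difference 0.55) and chromosome 8 from 124600001 to 124800000 (0.33 and 0.87, difference 0.53). The KO array was higher than the control in the first 3 of them and lower in the last 2. With the arrays set to 1 common spread, the windows of chromosome 17, chromosome 6 and chromosome 8 no longer passed the call. With normexp those of chromosome 17 (0.45) and chromosome 12 (0.25) did not pass, and at a size threshold of 0.35 the window of chromosome 4 alone did.

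The direction was the same on all autosomes with the processed signals. The probe-poor median of KO minus control was below 0 on 19 of 19, from -0.73 on chromosome 14 to -0.18 on chromosome 13, and that of induced minus non-induced was below 0 on 19 of 19, from -0.44 to -0.17. Both were also below the probe-rich median on 19 of 19. With the arrays set to 1 common spread both stayed below 0 on 19 of 19, where the median of all autosomal windows was -0.17 and -0.09, and they were below the probe-rich median on 14 and 18. After quantile normalization they were below 0 on 15 and 16 of 19 and below the probe-rich median on 14 and 19. With each array centred on its windows they were below 0 on 19 and 18 and below the probe-rich median on 19 and 19. Non-induced minus control, between the reference arrays, went the same way with the processed signals. Its probe-poor median was below 0 and below the probe-rich median on 19 of 19, from -0.36 to -0.03. These counts were 17 and 14 with 1 common spread, 16 and 12 after quantile normalization, and 17 and 19 centred on windows. The share of probe-poor windows called later in KO was 55.3% on chromosome 14 and 52.1% on chromosome 1, against 6 of 50 windows on chromosome 19 and 18.4% on chromosome 13.

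The non-induced and control arrays, which lie on different slides, differed as well. In probe-poor windows the median of non-induced minus control was -0.19, with 388 called later (13.5%, against 10.8% over all windows) and 100 earlier (3.47%, against 8.17%). Later calls numbered 320 with normexp (11.1%, against 9.28%) and 269 of 1506 with probes well above background (17.9%, against 11.1%). They numbered 288 with scaled arrays (10.0%, against 7.93%) and 269 after quantile normalization (9.34%, against 7.29%). Induced minus non-induced had fewer under these settings, at 143, 177, 109 and 84 in the same order. It had more with processed signals (467), at a threshold of 0.35 (290) and by size alone (1039). Non-induced minus control had 177 earlier calls with normexp (6.15%, against 8.25%) and 60 of 1506 with probes well above background (3.98%, against 8.44%). At a size threshold of 0.35, 243 were later (8.44%, against 5.53%) and 57 earlier (1.98%, against 4.07%), and by size alone 691 were later (24.0%, against 14.5%) and 177 earlier (6.15%, against 9.57%). Slide and cells cannot be told apart in this comparison, and it shares the control array with KO minus control.

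To set windows of like timing side by side, windows were ranked into 5 equal groups by the mean timing of the 2 arrays that a comparison does not use. From the latest group to the earliest, mean KO minus control in probe-poor windows was -0.38, -0.56, -0.58, 0.01 and 0.02, over 917, 924, 751, 180 and 107 windows. The SD over windows was 0.42, 0.53, 0.65, 0.49 and 0.37, so single windows of like timing spread widely. In probe-rich bins it was -0.31, -0.30, -0.12, 0.02 and 0.01. The difference between both kinds of window was thus widest in the second and the third group and close to 0 in the earliest 2. With 1 common spread the probe-poor means were -0.14, -0.41, -0.51, -0.10 and -0.21, against -0.09, -0.14, -0.05, -0.10 and -0.21. For induced minus non-induced the means were -0.50, -0.44, -0.37, -0.02 and 0.09 in probe-poor windows, against -0.42, -0.31, -0.15, 0.12 and 0.21 in probe-rich bins. With 1 common spread they were -0.18, -0.19, -0.21, -0.04 and -0.11 against -0.10, -0.08, -0.09, -0.06 and -0.05. In all, 65.1% of probe-poor windows lay below the median difference of probe-rich bins of like timing in the KO comparison and 64.0% in the induced one. Limited to probes well above background on all arrays, which leaves 1506 probe-poor windows, these shares were 52.0% and 55.1%.

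Probe-poor windows formed 1323 runs of directly adjacent members, the longest of 17 windows (3.4 Mb), and 860 of 2889 (29.8%) lay in runs of 5 or more. Control timing did not follow run length: the medians for runs of 1, 2, 3 to 4, 5 to 9 and 10 or more windows were -0.43, -0.55, -0.56, -0.43 and -0.49. The KO medians were -0.72, -1.01, -1.09, -1.14 and -1.31, and those of the induced array -0.88, -1.17, -1.19, -1.16 and -1.02. The difference of KO minus control therefore grew with run length, with medians of -0.19, -0.39, -0.46, -0.66 and -0.82. The share called later was 20.9%, 29.9%, 38.0%, 50.2% and 59.4%, against 22.2% over all windows. For induced minus non-induced the medians were -0.19, -0.33, -0.40, -0.52 and -0.50. The share called later in induced was 10.8%, 16.1%, 17.1%, 19.2% and 23.8%, against 11.9% over all windows. Windows in runs of 1 were thus called later no more often than all windows in either comparison with the processed signals. The longest class holds 101 windows in 8 runs, so it rests on few places.

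With 1 common spread, KO minus control had medians of -0.10, -0.21, -0.26, -0.52 and -0.66, and induced minus non-induced -0.06, -0.10, -0.16, -0.26 and -0.31. After quantile normalization the single windows were at 0.03 and 0.01, and the runs of 10 or more at -0.56 and -0.25. With normexp the KO medians were -0.08, -0.15, -0.19, -0.31 and -0.44, and the induced ones -0.09, -0.12, -0.13, -0.15 and -0.14. The share called later in induced was then 3.92%, 5.59%, 4.46%, 5.42% and 8.91%, against 2.34% over all windows. The order by run length was thus seen in the KO comparison under each of these settings, and in the induced comparison it nearly vanished with normexp. With probes well above background only (480, 341, 400, 253 and 32 windows), they were -0.17, -0.24, -0.30, -0.41 and -0.55, and -0.16, -0.20, -0.24, -0.35 and -0.32. Early-channel probes well above background on the induced array made up 87.5%, 80.9%, 76.9%, 67.5% and 66.1% by run length, and on the KO array 94.0%, 91.6%, 91.1%, 86.7% and 90.7%. The dimming along runs was thus stronger on the induced array than on the KO array, and its part in the result was not tested.

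**Figure D4:**
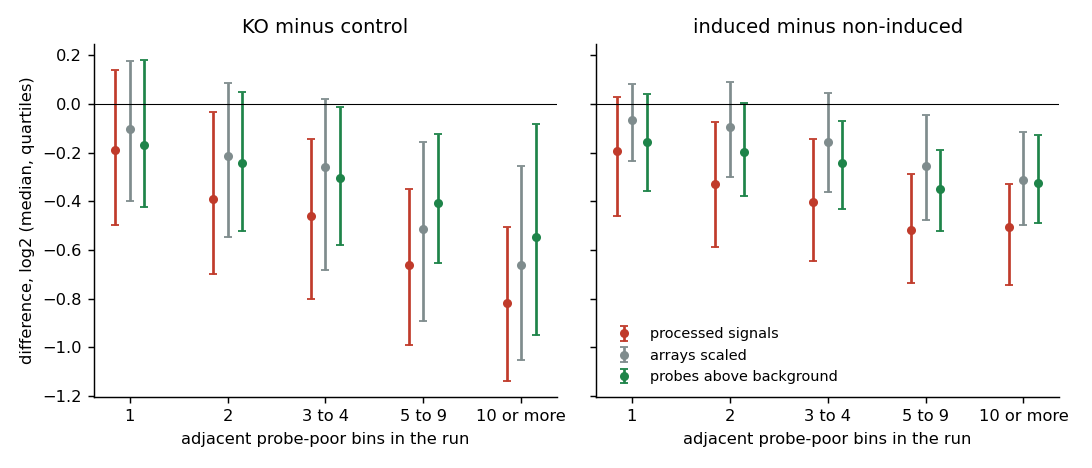
Median difference in timing (log2 units, vertical axis) of probe-poor windows by the length of the run they belong to (number of directly adjacent windows, horizontal axis), with quartiles, for processed signals, scaled arrays and probes above background. The medians fall from -0.19 in single windows to -0.82 in runs of 10 or more for KO minus control, and the same order is seen with scaled arrays, from -0.10 to -0.66.

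The longest runs did not behave alike. Runs of 11 windows tied on chromosomes 1, 3, 4 and 8, and the rule takes the lower chromosome numbers for the 6 runs described in full. The longest, of 17 windows on chromosome 17 from 91600001 to 95000000, averaged -0.36 on the control, -1.36 on the KO, -0.47 on the non-induced and -1.19 on the induced array, with 15 of 17 windows called later in KO and 7 in induced. The run of 14 on chromosome 16 from 81600001 to 84400000 averaged 0.06, -1.08, -0.33 and -0.79, with 10 windows later in KO and 2 in induced. The run of 11 on chromosome 1 from 109600001 to 111800000 averaged -0.06, -1.28, -0.37 and -1.06, with 9 and 1. These 3 runs averaged between -0.36 and 0.06 on the control array and were late on the KO array.

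The run of 11 on chromosome 3 from 47000001 to 49200000 averaged -0.44, -1.29, -0.44 and -0.90, with 6 later in KO and 2 in induced. The run of 12 on chromosome 17 from 76000001 to 78400000 averaged -0.94 on the control and -1.29 on the KO array and -1.41 on the induced array, with 2 and 2. The run of 14 on chromosome 2 from 45000001 to 47800000 averaged -0.88, -0.97, -0.87 and -1.19, with 1 window later and 3 earlier in KO and 2 later in induced. The last 2 were already late on the control array and had the smallest KO differences of the 6. The tied runs had medians of -0.95, -1.56, -0.37 and -1.29 on chromosome 4 and 0.01, -1.21, -0.30 and -1.02 on chromosome 8. By chromosome, the median KO minus control in runs of 10 or more ranged from -1.15 on chromosome 1, -1.12 on chromosome 8 and -1.09 on chromosome 16 to -0.18 on chromosome 2.

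Because a run depends on its neighbours, windows were also grouped by the number of probes within 1 Mb on either side, with their own bin left out. This grouping was chosen after values were seen. Windows within that distance of the first or last probed bin were left out. In 5 equal groups of that number (15 to 105, 106 to 130, 131 to 151, 152 to 171 and 172 to 221 probes), the median KO minus control of probe-poor windows was -0.66, -0.36, -0.22, -0.18 and -0.04, over 1411, 700, 392, 252 and 87 windows. For probe-rich bins it was -0.27, -0.17, -0.08, -0.05 and -0.04, over 131, 319, 534, 608 and 893 bins. With the processed signals both kinds had the same median in the densest surroundings, and in the sparsest the probe-poor windows were lower. For induced minus non-induced the medians were -0.52, -0.31, -0.20, -0.09 and 0.00, against -0.33, -0.15, -0.05, 0.03 and 0.18. With 1 common spread, KO minus control in probe-poor windows was -0.50, -0.18, -0.08, -0.09 and 0.00, against -0.14, -0.14, -0.13, -0.14 and -0.22 in probe-rich bins. After quantile normalization it was -0.36, -0.04, 0.05, 0.03 and 0.12, against 0.00, -0.03, 0.01, 0.01 and -0.06. Probe-poor windows were thus lower in the sparsest surroundings under each of these settings, but higher than probe-rich bins in the 3 densest groups under the latter pair. The probe-rich bins had no gradient of this kind there.

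**Figure D5:**
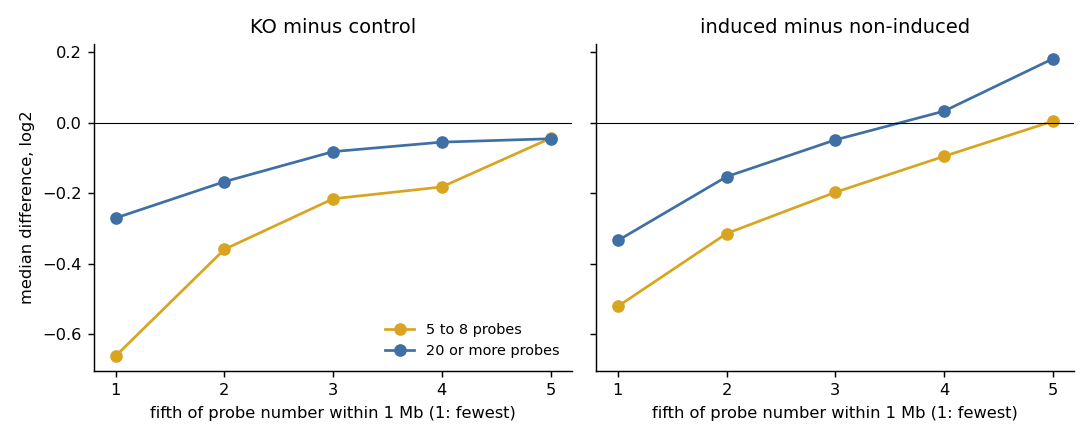
Median difference in timing (log2 units, vertical axis) of probe-poor windows and probe-rich bins in 5 groups by the number of probes within 1 Mb on either side (horizontal axis, sparsest to densest), for both comparisons. Probe-poor windows fall from -0.04 in the densest to -0.66 in the sparsest surroundings for KO minus control with the processed signals, and probe-rich bins from -0.04 to -0.27.

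Both comparisons met in part of the windows. Among 2879 probe-poor windows, 252 (8.75%) were called later in both, against 6.57% over all windows. They were 24.0% of those later in KO and 54.0% of those later in induced, where over all windows the shares were 29.6% and 55.0%. The values of KO minus control and induced minus non-induced correlated with Pearson's r of 0.45 over these windows, which share each array's dye and depth effects, and with 0.37 over probe-rich bins. There were 2 windows earlier in both (0.0695%, against 0.0167% over all windows), and they were the only 2 among all 12000 windows. Another 10 were earlier in KO and later in induced (against 0.292%). None was later in KO and earlier in induced, where 2 of all 12000 windows were.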

How the data were processed

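Each array file holds spot intensities and a log10 ratio of red over green per spot, deposited by the authors from Agilent Feature Extraction 11.5.1.1 per the file headers (9.1 per the submitters' processing notes), on build mm9. The deposited quality flags (outlier, well above background, saturated) are other values that the authors' scanner software wrote. Processed signals are already background-subtracted and dye-normalized by that software.

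Spots flagged as outliers were dropped, spots of a probe were averaged, and timing was taken as log2 of green over red signal, centred on the autosomal probe median. No loess or quantile step was used, because windows may truly shift one way. A window needed 5 usable probes. Calls used 0.25 of the reference array's 10th to 90th percentile distance and 3 standard errors, over 12000 windows of chromosomes 1 to 19 and X. Alternatives were normexp (offset 50, on median signals, since mean signals are not in the files), scaling, quantile normalization, the authors' deposited log10 ratio table, a filter on dim probes, a minimum of 3 probes, another centring, other thresholds and other probe-number ranges. The calling code was tested on simulated data. Python 3.11.15 with numpy 2.4.6 and pandas 2.3.3, and R 4.3.3 with limma 3.58.1, were used.

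Windows named in the text are the 6 longest runs (ties by lower chromosome number, then start), the 4 earliest and 4 latest on average, the 5 lowest and 5 highest called differences of each comparison, and the 3 furthest below and above their neighbours. The members, lists and tests were chosen with earlier results of these data known. Gene names are not reported, since the files pair no probe with a gene and the annotation at hand is on another build.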

Additional observations from a re-analysis of the deposited data

Results flagged for a closer look

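In 10 probe-poor windows the comparisons went opposite ways: they were called earlier in KO minus control and later in induced minus non-induced. KO minus control ran from 0.58 to 1.19 in them, and induced minus non-induced from -1.17 to -0.53. With the arrays set to 1 common spread, none of the 10 kept its induced call, 9 kept the KO call, and all 10 kept the sign of both differences. Another window was then called in opposite directions. Over all windows 35 of 12000 (0.292%) showed this pair of calls. That is close to the share in probe-poor windows (10 of 2879), so the pair of calls was not particular to them. The difference between the comparisons was not tested, since each rests on 1 array per group.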

How the results depend on the processing

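No share of members crossed 50% under the alternatives run, but some exact binomial 95% intervals included 50%. They were those of the KO share below bins of like timing with probes well above background (52.0%, 49.4 to 54.5) and the KO share below neighbours with normexp (51.7%, 49.6 to 53.7). Of the 152 recomputed values, 107 stayed within their error or within 1.5 times. The value table the authors deposited and a minimum of 3 probes moved none. With normexp, 143 windows were later and 3 earlier in induced, 177 were earlier in non-induced minus control, and 55.9% lay below probe-rich bins of like timing in the induced comparison. With scaled arrays, 672 were later in KO, 109 later in induced, and that share was 60.5%. After quantile normalization, 520 and 84 were later. With probes well above background only, 84.3%, 83.2%, 89.0% and 90.1% were later than the median probe-rich bin (control, KO, non-induced, induced), 59.6% and 57.6% lay below their neighbours on the non-induced and induced arrays, 52.0% and 55.1% lay below bins of like timing, and calls were 396 later in KO, 177 later and 2 earlier in induced, and 60 earlier in non-induced minus control. The share earlier in induced was below that of all windows with the processed signals and above it with scaling, quantile normalization, bright probes only and the 0.35 threshold, on 1 to 7 windows. Centred on windows, 656 were later and 241 earlier in KO, and 157 later and 45 earlier in induced. Without windows beside a gap or a chromosome end, the late share was 88.4% on the KO, 92.2% on the non-induced and 93.2% on the induced array. At a size threshold of 0.35, 71 were earlier in KO, 290 later and 1 earlier in induced, and 243 later and 57 earlier in non-induced minus control. With size alone, 1039 were later and 9 earlier in induced, and 691 later and 177 earlier in non-induced minus control. Members of 5 or 6 probes had late shares of 90.6%, 91.8%, 95.2% and 95.8%, and those of 7 or 8 probes 85.7%, 85.8%, 89.3% and 90.7%. The causes of these shifts were not tested. Of 282 recomputed values of named windows, 21 changed size by over 1.5 times, 18 of them of the 34 with normexp, 16 differences lost the call and none changed sign. Only 10 of the 34 had a value with probes well above background, and 28 without windows beside a gap or a chromosome end. Windows that dropped out there are not counted in these numbers. No paired analysis was possible because each group has 1 array and the labels carry no replicate numbers.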
